A study of Homo sapiens with 4 samples.

Results

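The genes described here build the contacts between a cell and the matrix around it. They are the integrin receptors, the laminin chains, fibronectin, nidogens and other basement membrane proteins, the hyaluronan receptor CD44, the filament protein vimentin and the adaptors of focal adhesions. They were taken from a list of 46 gene symbols, and all 46 were found among the 64252 gene rows of the count table. They were followed in SK-N-BE(2), a human neuroblastoma cell line known for amplified MYCN, treated with a scramble short hairpin RNA (sh-Scb, 2 libraries) or a hairpin against IRF2BP2 (sh-IRF2BP2, 2 libraries). IRF2BP2 is a nuclear protein that binds the repressor domain of IRF2 and tunes transcription. The number of hairpin sequences and the time under them are not stated in the labels. Whether replicates came from separate cultures is not stated either, and the p-values therefore rest on a spread that may be technical. Control columns are headed NC, a term absent from the labels, and were taken as scramble because no other group remains.

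Integrins are receptors made of an alpha and a beta subunit, and the alpha subunit largely sets which matrix protein is bound. Laminins are assembled from an alpha, a beta and a gamma chain, and the alpha chain carries the globular domains that receptors grip. Inside the cell, talin, kindlin, vinculin, paxillin and zyxin link the beta subunit's tail to actin. Neuroblastoma is known to move between an adrenergic, neuron-like state and a mesenchymal state in which vimentin, fibronectin and adhesion genes are high.

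Total counts lay between 30847699 and 34684651 per library. IRF2BP2 itself stood at 243 and 238 CPM (counts per 1000000, TMM-scaled) in scramble replicates 1 and 2 and at 89.6 and 87.5 CPM with its hairpin (log2 fold change -1.44, edgeR adjusted p = 5.87e-10). Of 12 adrenergic neuroblastoma markers, 9 fell and 2 rose, beside 21.4% and 20.6% of all genes tested. Their summed level stayed between 8649 and 9252 CPM in all 4 libraries, most of it MYCN. Fibroblast markers summed to 565 and 549 CPM with scramble and to 454 and 449 CPM with the hairpin, with COL1A1 and COL3A1 of 8 higher, 5 lower and COL1A2 at 0 in the hairpin libraries. The endothelial, Schwann cell, leukocyte and epithelial lists each summed to at most 7.19 CPM in every library, with PECAM1, CDH19, FOXD3 and CD3E at 0 throughout. The 13 protein genes of the mitochondrial genome took 6.54% and 6.39% of counts with scramble and 5.76% and 5.78% with the hairpin, and the part of this and of the marker lists in the results was not tested. In bulk RNA, fewer cells of a type and less RNA per cell cannot be told apart.

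Among the 46 genes the hairpin came with changes in both directions. Of the laminin chains, 4 of 5 alpha genes fell and 3 of 5 beta and gamma genes rose. Fibronectin and the actin-side adaptors zyxin, paxillin and vinculin rose, and integrin alpha genes were called in both directions. Of the 44 genes that passed the filter on low counts, 14 rose and 13 fell (edgeR quasi-likelihood test, adjusted p under 0.05 over 19093 genes), and 17 were not called. Over all genes tested, 20.6% rose and 21.4% fell, and 42.0% were called in either direction, so the 61.4% called here stands on a high background. In 37 of the 44 the groups did not overlap, beside 70.4% of all genes. The median log2 fold change of the 44 genes was -0.05, beside -0.01 for all genes. Tested against a change of 1.5-fold (edgeR glmTreat), 5 genes were higher and 6 lower, beside 2.85% and 5.63% of all genes (8.48% in either direction). Without IRF2BP2 shRNA replicate 2, fewer of the 44 genes were lower past 1.5-fold, and fewer of all genes passed in either direction. ITGB6 (4, 0, 2 and 3 counts in scramble 1 and 2 and hairpin 1 and 2) and VTN (6, 8, 10 and 10 counts) did not pass the filter.

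**Figure D1:**
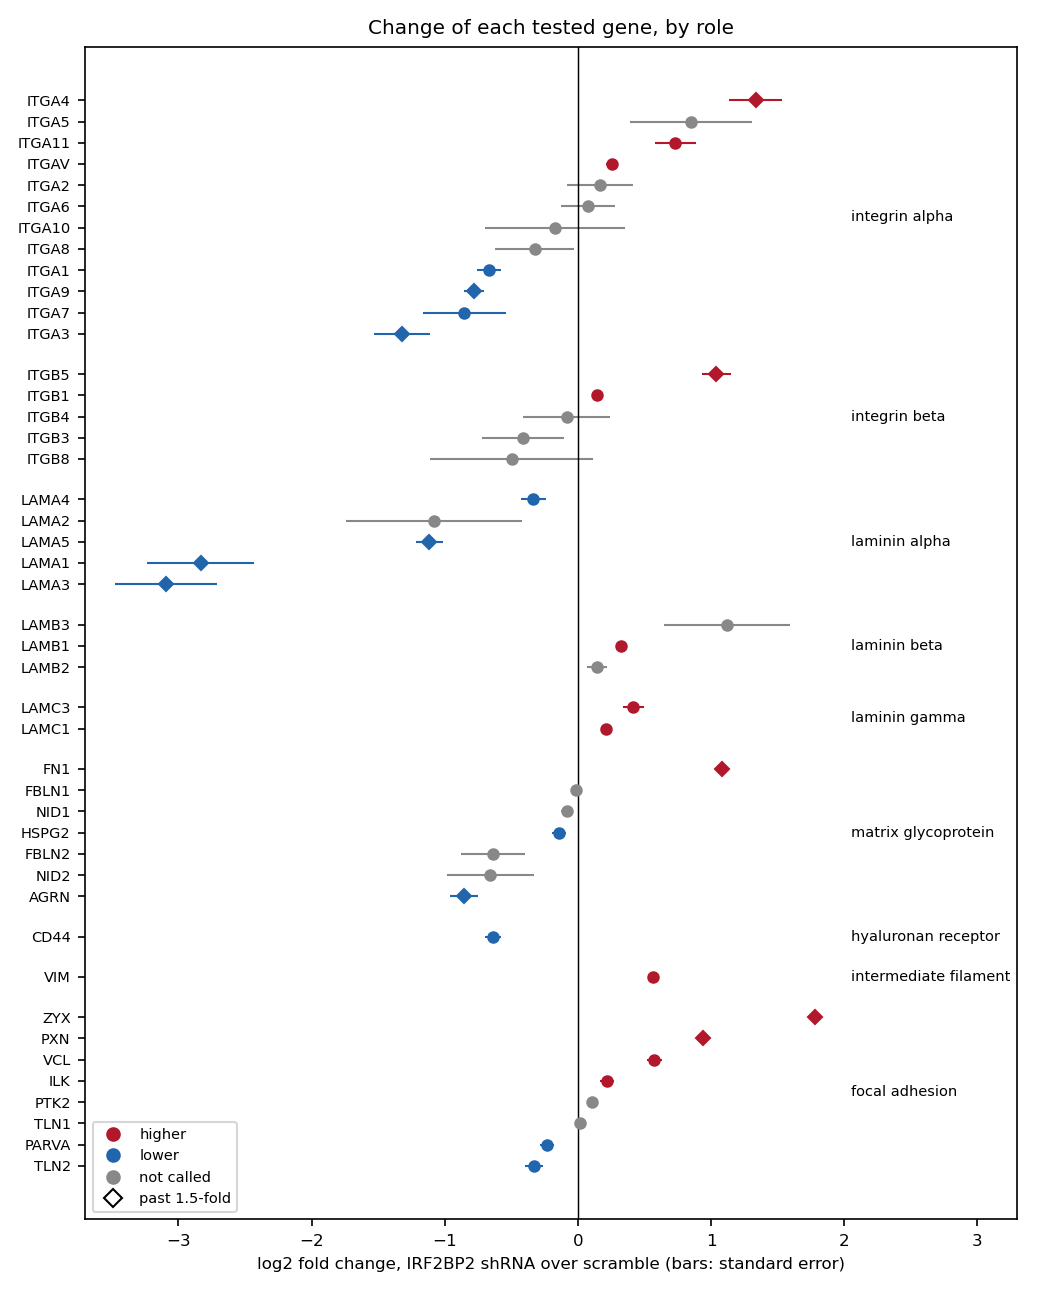
Log2 fold change of the 44 tested genes, grouped by role, with the standard error as a bar; red and blue mark an edgeR adjusted p under 0.05 (higher and lower), and diamonds mark genes past 1.5-fold. The 5 laminin alpha genes lie left of 0 and the 5 laminin beta and gamma genes right of 0, while the integrin alpha genes run from -1.32 to 1.34.

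The sequences upstream of 6 genes that carry these results are shown first, as read from RefSeq's promoter table (GRCh38.p14), 5′ to 3′ along the gene's strand. Each begins 250 bases before a listed start and ends where an exon of a protein-coding GENCODE transcript begins, which leaves out the last 2 bases for VCL, 41 for PXN, 104 for FN1 and 94 for LAMB1. Of several starts, the one nearest the GENCODE gene start was taken for PXN and ITGB5. VCL, PXN, FN1 and ITGB5 rose, LAMA5 fell, and LAMB1, which rose slightly, is the laminin chain with the highest length-scaled level. VCL and LAMB1 did not pass 1.5-fold. ZYX, ITGA4 and LAMA3 did and have listed starts too, but are not shown. Capitals mark matches on either strand to 7 motifs. These were the GC box GGGCGG, AP-1 as TGANTCA, CRE as TGACGTCA, TEAD as GGAATG, the E-box CACGTG, IRF as a pair of GAAA tetramers 2 bases apart, and the CArG box by name. Neighbouring GC boxes overlap in FN1 and PXN, and no other matches overlapped in these 6 sequences. They lie at chr10:73997866-73998113 (VCL, plus strand), chr12:120265772-120265980 (PXN, minus), chr2:215436173-215436318 (FN1, minus), chr3:124901419-124901668 (ITGB5, minus), chr20:62367313-62367562 (LAMA5, minus) and chr7:108003256-108003411 (LAMB1, minus).
VCL: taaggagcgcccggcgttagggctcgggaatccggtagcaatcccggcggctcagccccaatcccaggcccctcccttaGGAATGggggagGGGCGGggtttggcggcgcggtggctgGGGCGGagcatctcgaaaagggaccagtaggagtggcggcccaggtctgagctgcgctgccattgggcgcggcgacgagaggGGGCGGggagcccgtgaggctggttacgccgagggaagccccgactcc
PXN: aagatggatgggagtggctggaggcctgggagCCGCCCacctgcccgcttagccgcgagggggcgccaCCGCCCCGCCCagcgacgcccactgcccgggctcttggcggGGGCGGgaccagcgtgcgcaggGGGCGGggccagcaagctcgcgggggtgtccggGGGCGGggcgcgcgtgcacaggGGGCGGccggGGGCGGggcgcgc
FN1: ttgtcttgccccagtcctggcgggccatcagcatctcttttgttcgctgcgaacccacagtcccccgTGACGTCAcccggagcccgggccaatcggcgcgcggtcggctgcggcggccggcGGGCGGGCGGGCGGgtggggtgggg
ITGB5: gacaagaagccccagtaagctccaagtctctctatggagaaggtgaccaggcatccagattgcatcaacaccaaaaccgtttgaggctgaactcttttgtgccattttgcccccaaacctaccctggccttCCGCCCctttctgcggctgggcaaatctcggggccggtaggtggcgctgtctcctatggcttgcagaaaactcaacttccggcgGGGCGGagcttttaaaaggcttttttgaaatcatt
LAMA5: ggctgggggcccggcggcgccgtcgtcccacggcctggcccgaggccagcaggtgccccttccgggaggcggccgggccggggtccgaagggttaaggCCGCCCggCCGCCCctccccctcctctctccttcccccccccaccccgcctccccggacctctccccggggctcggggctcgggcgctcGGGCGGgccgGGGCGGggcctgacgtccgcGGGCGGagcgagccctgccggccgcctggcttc
LAMB1: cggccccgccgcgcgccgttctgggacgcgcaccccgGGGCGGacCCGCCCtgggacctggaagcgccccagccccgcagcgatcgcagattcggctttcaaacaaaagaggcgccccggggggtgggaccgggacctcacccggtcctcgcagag

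FN1 holds the full CRE TGACGTCA from 183 bases before its start, and VCL holds the TEAD letters GGAATG at 171 bases. The capitals in the sequences shown for PXN, ITGB5, LAMA5 and LAMB1 are GC boxes alone. At other listed starts, not shown, PXN holds the TEAD letters 67 bases before the start and ITGB5 holds the IRF motif at 231 bases. In windows of 250 bases before to 50 after each start, 36 of the 46 genes matched the table, with 45 windows. GC boxes stood in 31 of the 45 (68.9%), beside 44.95% of all 35116 windows. The median GC content was 69.3% in the genes' windows and 58.7% in all windows. AP-1 matched 3 of 45 windows (ITGA5, LAMA3 and LAMB3; 6.67%, beside 7.71% of all), TEAD 7 (15.6%, beside 14.03%), the E-box 2 (4.44%, beside 7.26%), and CRE (FN1), IRF (ITGB5) and the CArG box (ITGB6) 1 each (2.22%, beside 1.85%, 3.57% and 1.29%). A match describes letters only, and whether any factor binds there was not tested.

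Integrin alpha subunits moved apart. Of 12, 3 rose and 4 fell, beside 20.6% and 21.4% of all genes, and 5 were not called. The hairpin libraries lay above both scramble libraries in 4 and below in 5, beside 34.4% and 36.0% of all genes. ITGA4 pairs with ITGB1 in a receptor for fibronectin and VCAM1 (gene ENSG00000115232, chromosome 2 from 181457202 to 181536187, plus strand, GRCh38). It stood at 2.76 and 3.35 CPM with scramble and at 8.53 and 6.90 CPM with the hairpin. Both hairpin libraries were above both scramble libraries (log2 fold change 1.34, standard error 0.20, edgeR adjusted p = 0.000229). ITGA11, a subunit for fibrillar collagen, rose from 6.88 and 5.99 CPM to 10.2 and 11.2 CPM, without overlap (0.73, edgeR adjusted p = 0.00225). ITGAV, the subunit shared by receptors that read the RGD sequence in fibronectin and vitronectin, rose from 92.8 and 89.0 to 108 and 109 CPM (0.25, edgeR adjusted p = 0.000526). Its change was small, at 1.19-fold, but larger than the gap between replicates.

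The falls were led by ITGA3, a laminin receptor subunit (ENSG00000005884, chromosome 17 from 50055968 to 50090481, plus strand). Its level went from 6.42 and 6.38 CPM to 2.91 and 2.22 CPM, with the groups apart (log2 fold change -1.32, standard error 0.21, edgeR adjusted p = 0.000368). ITGA9, which binds tenascin-C and VCAM1 among others (ENSG00000144668, chromosome 3 from 37452115 to 37823514, plus strand), was second to ITGAV in length-scaled level. It fell from 39.8 and 40.8 CPM to 24.2 and 22.6 CPM, close values within each group (-0.78, standard error 0.08, edgeR adjusted p = 9.60e-06). ITGA1, a collagen receptor subunit, fell from 27.7 and 25.8 CPM to 16.3 and 17.4 CPM (-0.67, edgeR adjusted p = 9.61e-05). ITGA7, a laminin receptor subunit best known in muscle, had 2.99 and 2.31 CPM with scramble and 1.13 and 1.81 CPM with the hairpin (-0.85, edgeR adjusted p = 0.0467). The ITGA7 call was lost in 7 of 11 alternative analyses, among them without scramble replicate 1 (adjusted p = 0.206) and without IRF2BP2 shRNA replicate 1 (0.280).

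Among the 3 alpha subunits best known as laminin receptors, ITGA3 and ITGA7 thus fell, and ITGA6 was level. ITGA6 had 4.20 and 3.71 CPM with scramble and 4.03 and 4.31 CPM with the hairpin, overlapping groups (log2 fold change 0.07, edgeR adjusted p = 0.803). Of the collagen binders ITGA1, ITGA2, ITGA10 and ITGA11, only ITGA11 was called higher and only ITGA1 lower. ITGA2 (0.17, edgeR adjusted p = 0.634) and ITGA10 (-0.18, 0.823), the latter with at most 0.489 CPM in any library, had overlapping groups. ITGA5, the fibronectin receptor subunit, was scarce throughout, at 0.345 and 0.683 CPM with scramble and 0.875 and 0.968 CPM with the hairpin, and was not called (0.85, edgeR adjusted p = 0.166). ITGA8 lay between 1.47 and 2.10 CPM in the 4 libraries (-0.33, edgeR adjusted p = 0.415). The call past 1.5-fold for ITGA4 was lost without IRF2BP2 shRNA replicate 1 (glmTreat adjusted p = 0.0754), that for ITGA3 without replicate 2 (0.0838), and that for ITGA9 without scramble replicate 1 (0.0642), scramble replicate 2 (0.134) or IRF2BP2 shRNA replicate 2 (0.236). DESeq2 and limma voom did not call these 3 genes past 1.5-fold either (adjusted p of 0.118 and 0.0536 for ITGA4, 0.255 and 0.0533 for ITGA3, and 1 and 0.172 for ITGA9). In all, ITGA9 lost that call in 7 of 12 alternatives, among them no filter on low counts (0.0749) and the replicate block (edgeR glmTreat adjusted p = 0.0547).

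The makeup of the alpha family was followed on a length-scaled level, the CPM per kilobase of annotated exon, which allows genes to be set beside each other. ITGAV held 53.7% and 53.0% of the summed alpha level with scramble and 63.1% and 63.9% with the hairpin. ITGA9 held 22.8% and 24.1% with scramble and 14.02% and 13.2% with the hairpin, so the ratio of ITGAV to ITGA9 went from 2.28 ± 0.11 to 4.67 ± 0.24 (SD, n = 2 in each group). The share of ITGA4 went from 1.66% and 2.07% to 5.18% and 4.22%. The sum over the 12 genes itself hardly moved, at 21.1 and 20.5 with scramble and 20.9 and 20.7 CPM per kilobase with the hairpin, and its groups overlapped. The total was thus close to level while its makeup differed. With 2 libraries against 2, an exact permutation test cannot give a two-sided p below 0.333, so shares and sums are given without a test.

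**Figure D2:**
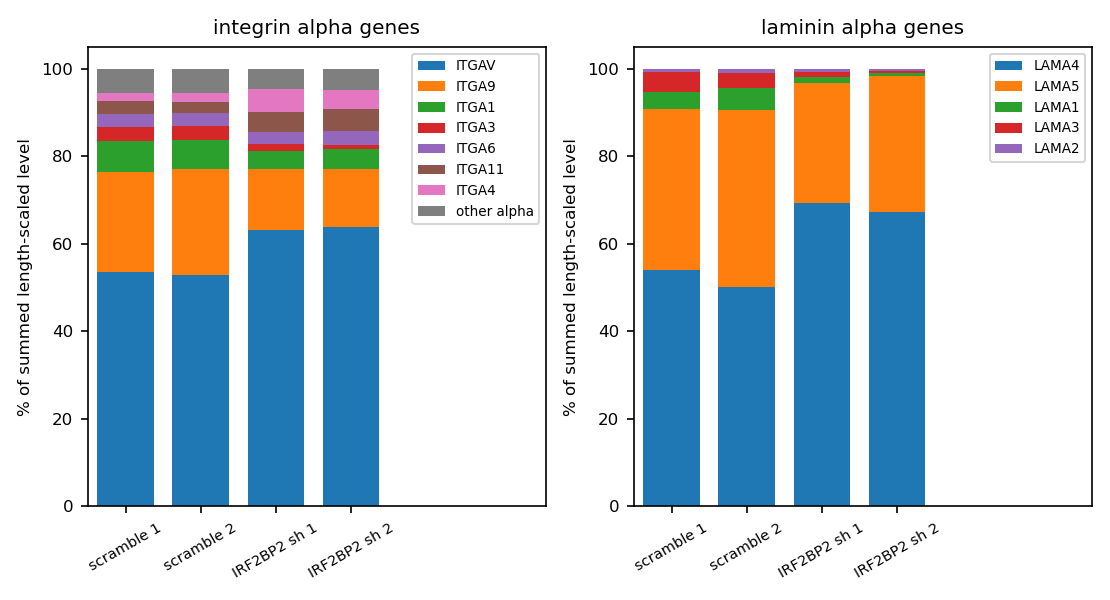
Percent of the summed length-scaled level (CPM per kilobase of exon) held by each integrin alpha gene (left) and laminin alpha gene (right), 1 bar per library. ITGAV takes 53.7% and 53.0% of the alpha integrins with scramble and 63.1% and 63.9% with the hairpin, and LAMA4 takes 54.0% and 50.2% of the laminin alpha level with scramble and 69.3% and 67.3% with the hairpin.

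Beta subunits were dominated by ITGB1, the partner of most alpha subunits (ENSG00000150093, chromosome 10 from 32900319 to 33005792, minus strand). It held 93.8% and 92.6% of the summed beta level with scramble and 89.9% and 91.1% with the hairpin. ITGB1 rose slightly, from 312 and 304 CPM to 338 and 344 CPM (log2 fold change 0.15, standard error 0.04, edgeR adjusted p = 0.0102). That call was lost with upper quartile scaling (adjusted p = 0.0652) and without IRF2BP2 shRNA replicate 2 (0.0910). ITGB5, which pairs with ITGAV in a vitronectin receptor (ENSG00000082781, chromosome 3 from 124761948 to 124901418, minus strand), showed the largest change of the beta genes. Its level was 13.8 and 17.4 CPM with scramble and 32.5 and 31.4 CPM with the hairpin, a clear gap between groups (1.04, standard error 0.11, edgeR adjusted p = 1.90e-05). Its share of the beta level went from 3.86% and 4.93% to 8.06% and 7.76%.

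Of the other beta subunits that pair with ITGAV, ITGB3 had 53 and 57 counts with scramble and 40 and 41 counts with the hairpin and was not called (log2 fold change -0.41, edgeR adjusted p = 0.317), and ITGB6 was too rare to test. A gene model on the same strand, at 0 counts in every library, covers 51.6% of the ITGB3 exons. ITGB8, a partner of ITGAV in the activation of latent TGF-beta, split the hairpin libraries. It had 375 and 344 counts with scramble but 364 and 134 counts in hairpin replicates 1 and 2, or 10.8, 11.2, 11.4 and 4.18 CPM. Its log2 fold change of -0.50 was not called (edgeR adjusted p = 0.608). Without IRF2BP2 shRNA replicate 1 it became -1.39 (edgeR adjusted p = 7.13e-05), and without replicate 2 it became 0.05 (0.850), so a single library decides this gene. ITGB4, the hemidesmosome subunit that pairs with ITGA6, stayed between 1.09 and 1.53 CPM in the 4 libraries (-0.08, edgeR adjusted p = 0.865).

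**Figure D3:**
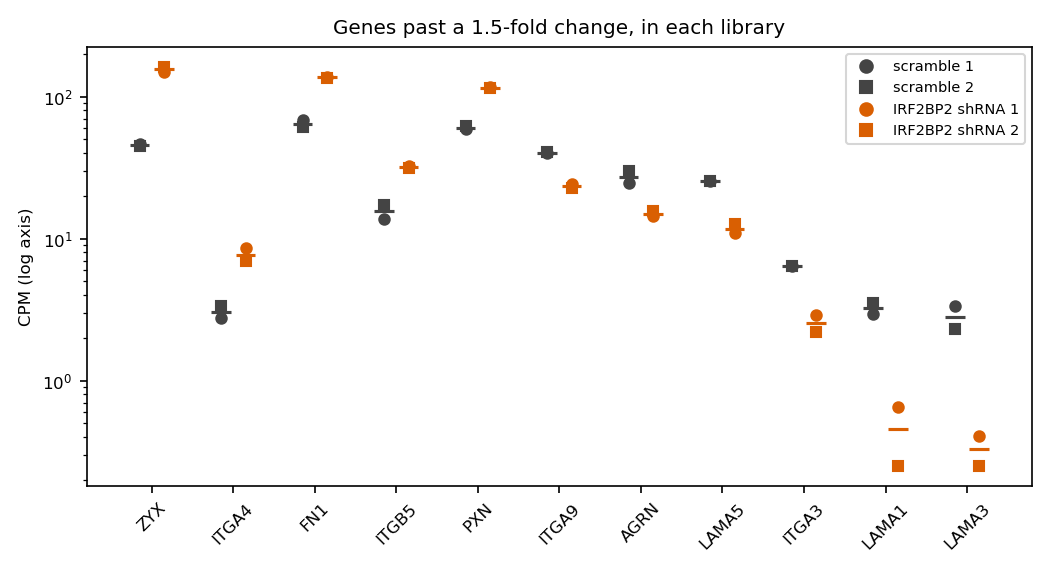
CPM on a log axis of the 11 genes past a 1.5-fold change, with circles for replicate 1, squares for replicate 2 and a line at each group's mean (grey scramble, orange IRF2BP2 shRNA). In each of the 11 genes the hairpin points lie wholly above or wholly below the scramble points, from ZYX (46.1 and 44.8 against 150 and 162 CPM) to LAMA3 (3.34 and 2.31 against 0.406 and 0.250 CPM).

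All 5 laminin alpha genes had both hairpin libraries below both scramble libraries, beside 36.0% of all genes. Of the 5, 4 fell, beside 21.4% of all genes. LAMA5, a chain of many epithelial and vascular basement membranes (ENSG00000130702, chromosome 20 from 62307955 to 62367312, minus strand), stood at 25.5 CPM in each scramble library and at 10.9 and 12.6 CPM with the hairpin. The scramble libraries gave the same value to 3 digits, and both hairpin libraries lay well below it (log2 fold change -1.11, standard error 0.10, edgeR adjusted p = 5.44e-06). LAMA5 overlaps ADRM1 on the opposite strand over 244 exonic bases (1.71% of its exons), and the more abundant ADRM1 rose (0.69), while LAMA5 fell. LAMA1, the chain of the early embryonic laminin (ENSG00000101680, chromosome 18 from 6941744 to 7117814, minus strand), had 103 and 109 counts with scramble and 21 and 8 counts with the hairpin. This was 2.97 and 3.55 against 0.656 and 0.250 CPM (-2.83, standard error 0.40, edgeR adjusted p = 0.000171). LAMA3, the alpha chain of the epithelial laminin that anchors hemidesmosomes (ENSG00000053747, chromosome 18 from 23689443 to 23956222, plus strand), went from 116 and 71 counts to 13 and 8 counts. Its log2 fold change of -3.09 was the lowest of the 44 genes (standard error 0.39, edgeR adjusted p = 6.24e-05).

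LAMA4, a chain of vessel and nerve basement membranes, was the most abundant alpha chain per length and moved least. It had 30.2 and 25.8 CPM with scramble and 22.3 and 22.1 CPM with the hairpin (log2 fold change -0.33, edgeR adjusted p = 0.0137). The LAMA4 call was lost without scramble replicate 1 (adjusted p = 0.144), IRF2BP2 shRNA replicate 1 (0.0504) or replicate 2 (0.0718). LAMA2, the muscle laminin chain, had 11, 13, 7 and 4 counts in the 4 libraries and was not called (-1.08, edgeR adjusted p = 0.221). The calls past 1.5-fold for LAMA1, LAMA3 and LAMA5 held in every alternative analysis that tested them (11, 11 and 12).

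Of the 5 beta and gamma chains, 3 rose, beside 20.6% of all genes, and 2 were not called. All 5 had both hairpin libraries above both scramble libraries, beside 34.4% of all genes. LAMB1 (ENSG00000091136, chromosome 7 from 107923799 to 108003255, minus strand) went from 334 and 328 CPM to 411 and 416 CPM (log2 fold change 0.32, standard error 0.04, edgeR adjusted p = 3.55e-05). LAMC1, the gamma chain of most laminins (ENSG00000135862, chromosome 1 from 183023460 to 183145592, plus strand), went from 236 and 225 CPM to 264 and 269 CPM (0.21, edgeR adjusted p = 0.00158). LAMC3 rose from 23.8 and 25.1 to 31.8 and 33.3 CPM (0.42, edgeR adjusted p = 0.00134). LAMB2 had 28.7 and 28.4 CPM with scramble and 31.9 and 31.2 CPM with the hairpin (0.14, edgeR adjusted p = 0.156). LAMB3, which joins LAMA3 in the epithelial laminin, had 0.345 and 0.488 against 0.688 and 1.12 CPM and was not called (1.12, edgeR adjusted p = 0.0794), although its values lay higher while those of LAMA3 fell.

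Set side by side per kilobase, laminin alpha transcripts were scarce next to beta and gamma transcripts already with scramble, and more so with the hairpin. The summed alpha level was 4.84 and 4.44 CPM per kilobase with scramble and 2.79 and 2.84 with the hairpin. The summed beta level was 45.3 and 44.5 with scramble and 55.3 and 55.8 with the hairpin, and the summed gamma level 31.2 and 30.1 against 35.6 and 36.4. The beta sum was therefore 9.70 ± 0.48 times the alpha sum with scramble and 19.8 ± 0.13 times with the hairpin (SD, n = 2 in each group). The gamma sum was 6.44 and 6.78 times the alpha sum with scramble and 12.8 times in each hairpin library. In contrast, the beta to gamma ratio stayed near its start, at 1.45 and 1.48 with scramble and 1.55 and 1.54 with the hairpin. Within the alpha family LAMA4 and LAMA5 together made up nearly the whole sum, and the share of LAMA5 went from 36.8% and 40.3% to 27.5% and 31.1% as that of LAMA4 went up. These sums cover the 10 laminin genes listed here and measure transcripts, not assembled protein.

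**Figure D4:**
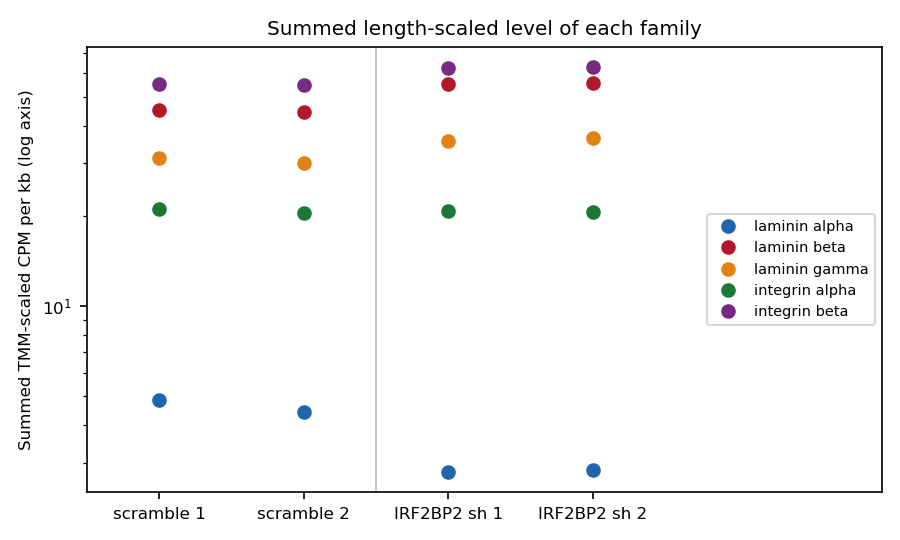
Summed CPM per kilobase of exon of each family on a log axis, 1 point per library, with scramble left of the grey line. The laminin alpha sum lies at 4.84 and 4.44 with scramble and at 2.79 and 2.84 with the hairpin while the laminin beta, laminin gamma and integrin beta sums are higher, and the integrin alpha sum stays between 20.5 and 21.1.

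Of the 8 matrix glycoprotein genes, 7 were tested, with 1 higher, 2 lower and 4 not called. The share called was 42.9%, close to the 42.0% of all genes tested. FN1, fibronectin, the ligand of ITGAV and ITGA4 receptors (ENSG00000115414, chromosome 2 from 215360440 to 215436172, minus strand), rose from 67.9 and 61.1 CPM to 138 and 136 CPM. The hairpin libraries were about 2.12-fold above scramble with no overlap (log2 fold change 1.08, standard error 0.05, edgeR adjusted p = 3.67e-08). AGRN, agrin, the organiser of acetylcholine receptors at the nerve-muscle synapse (ENSG00000188157, chromosome 1 from 1020123 to 1056118, plus strand), fell from 24.7 and 29.7 CPM to 14.4 and 15.6 CPM (-0.86, standard error 0.11, edgeR adjusted p = 6.19e-05). Its call past 1.5-fold was lost in 7 of 12 alternatives, among them without scramble replicate 2 (glmTreat adjusted p = 0.363), IRF2BP2 shRNA replicate 1 (0.207) or replicate 2 (0.0650).

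Of the genes for proteins that link laminin to the collagen network, NID1 and HSPG2 changed little. NID1, nidogen, which bridges laminin gamma chains and type IV collagen, had 83.9 and 85.6 CPM with scramble and 81.3 and 79.0 CPM with the hairpin (log2 fold change -0.08, edgeR adjusted p = 0.184). NID1 was called lower with upper quartile scaling (edgeR adjusted p = 0.0401) and with only genes averaging 10 CPM or more (edgeR adjusted p = 0.0479). HSPG2, perlecan, had 71.2 and 71.3 CPM with scramble and 63.4 and 65.6 CPM with the hairpin (-0.14, edgeR adjusted p = 0.0442), and this small fall was not called without any of the libraries in turn (edgeR adjusted p from 0.0838 to 0.237). FBLN1, fibulin, was among the most abundant matrix genes and level, at 355 and 363 against 348 and 362 CPM (-0.02, edgeR adjusted p = 0.796). FBLN2 had 3.77 and 3.12 CPM with scramble and 2.28 and 2.15 CPM with the hairpin and was not called (-0.64, edgeR adjusted p = 0.0521). Upper quartile scaling gave an edgeR adjusted p of 0.0389 and DESeq2 an adjusted p of 0.194. Without each library in turn, its log2 fold change lay between -0.76 and -0.48. NID2 (-0.66, edgeR adjusted p = 0.132) had between 1.00 and 2.02 CPM, and 29.96% of its exons overlap the far more abundant RTRAF on the opposite strand, so its reads are uncertain.

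CD44, the hyaluronan receptor (ENSG00000026508, chromosome 11 from 35138870 to 35232402, plus strand), fell from 90.7 and 81.0 CPM to 54.9 and 55.4 CPM. The groups were well apart (log2 fold change -0.64, standard error 0.06, edgeR adjusted p = 7.83e-06). VIM, vimentin, had the highest length-scaled level of the 46 genes (ENSG00000026025, chromosome 10 from 17228259 to 17237593, plus strand). It rose from 1556 and 1503 CPM to 2240 and 2282 CPM (0.56, standard error 0.03, edgeR adjusted p = 1.30e-07). CD44 and VIM, both commonly counted as mesenchymal markers, thus moved in opposite directions in the same libraries.

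On the inner face of the adhesion, 4 of 8 genes rose and 2 fell, beside 20.6% and 21.4% of all genes, and 2 were not called. ZYX, zyxin, a LIM protein found on tensed actin fibres at mature adhesions (ENSG00000159840, chromosome 7 from 143381080 to 143391111, plus strand), had the highest log2 fold change of the 44 genes. It stood at 46.1 and 44.8 CPM with scramble and at 150 and 162 CPM with the hairpin (1.78, standard error 0.05, edgeR adjusted p = 6.08e-10), a 3.43-fold rise. PXN, paxillin, the scaffold that docks focal adhesion kinase (ENSG00000089159, chromosome 12 from 120210439 to 120265771, minus strand), rose from 58.8 and 62.1 CPM to 117 and 114 CPM. Its log2 fold change was 0.94 (standard error 0.05, edgeR adjusted p = 4.35e-08), and its antisense partner PXN-AS1 was rare beside it, with a mean of 150.5 counts against 2838. VCL, vinculin, which ties talin to actin (ENSG00000035403, chromosome 10 from 73995193 to 74121363, plus strand), rose from 99.2 and 88.1 CPM to 140 and 139 CPM (0.57, standard error 0.05, edgeR adjusted p = 1.36e-05). VCL shares 11.1% of its exons with AP3M1 on the opposite strand, which was not called (-0.12, edgeR adjusted p = 0.0593).

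Talins, the kinase PTK2 and the ILK and parvin pair had smaller log2 fold changes, between -0.33 and 0.22. TLN1, talin, which activates integrins, had 306 and 300 CPM with scramble and 307 and 305 CPM with the hairpin, overlapping groups (log2 fold change 0.01, edgeR adjusted p = 0.819), and its sign turned with upper quartile scaling (-0.04). TLN2, the talin form typical of brain and heart, fell from 70.3 and 62.2 CPM to 51.2 and 54.2 CPM (-0.33, edgeR adjusted p = 0.00248). Of the complex that couples beta tails to actin, ILK rose from 58.7 and 59.0 to 67.1 and 70.0 CPM (0.22, edgeR adjusted p = 0.00683), and PARVA, its parvin partner, fell from 69.4 and 67.5 to 59.1 and 57.4 CPM (-0.23, edgeR adjusted p = 0.00490). ILK shares 68.1% of its exons with TAF10 on the opposite strand, which also rose (0.19, edgeR adjusted p = 0.0135), and without stranded counting the reads of the 2 genes cannot be told apart. PTK2, focal adhesion kinase, had 143 and 141 CPM with scramble and 157 and 149 CPM with the hairpin and was not called (0.11, edgeR adjusted p = 0.0569). Upper quartile scaling (edgeR adjusted p = 0.299) and DESeq2 (adjusted p = 0.126) did not call it either, while the replicate block did (edgeR adjusted p = 0.0403). Without each library in turn, its log2 fold change lay between 0.07 and 0.15. Per kilobase, zyxin went from 0.436 and 0.432 times the talin level of TLN1 to 1.41 and 1.53 times.

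**Figure D5:**
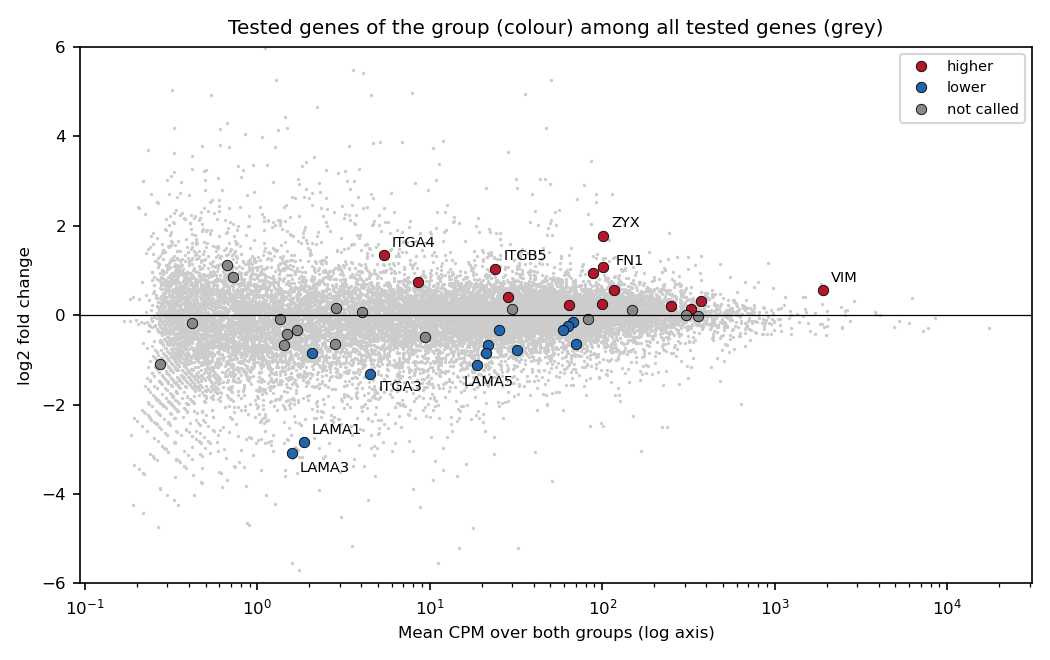
Mean CPM over both groups (log axis) against log2 fold change for the 44 tested genes (coloured by call) over all 19093 tested genes (grey; 30 genes beyond a log2 fold change of 6 in size are not drawn). ZYX (1.78) is the highest of the coloured points, LAMA1 and LAMA3 lie low at few CPM, and VIM has the highest CPM of the 44.

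The other genes of the pathway were read from 4 lists that hold none of the 46 genes. Of 45 tested focal adhesion adaptors and kinases, 17 rose and 11 fell, 17 stayed uncalled, and the median log2 change was 0.12. The share called was 62.2%, beside 42.0% of all genes tested (20.6% higher and 21.4% lower). PALLD, palladin, an actin crosslinker of stress fibres, rose from 53.7 and 50.2 to 91.5 and 101 CPM (0.89, edgeR adjusted p = 6.02e-07), and the muscle-type filamin FLNC from 95.8 and 99.8 to 147 and 157 CPM (0.63, edgeR adjusted p = 5.70e-07). FYN, a Src family kinase that acts downstream of integrins, fell from 187 and 195 to 126 and 123 CPM (-0.62, edgeR adjusted p = 3.61e-07). EVL, an Ena/VASP protein that extends actin filaments and binds zyxin, fell from 157 and 166 to 101 and 108 CPM (-0.63, edgeR adjusted p = 8.23e-07). PALLD overlaps CBR4 on the opposite strand over 1.07% of its exons.

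Of 22 tested genes of the dystroglycan complex and other laminin receptors, 7 rose, 5 fell and 10 were not called (median 0.08). Without each library in turn fewer of them were called, and fewer of all genes tested were called too. With all libraries, 54.5% of that list were called, beside 42.0% of all genes tested. SGCB, a sarcoglycan of the dystroglycan complex, fell from 72.0 and 68.8 to 26.2 and 25.8 CPM (log2 fold change -1.44, edgeR adjusted p = 2.46e-08). The enzymes that build the laminin-binding sugar of dystroglycan moved apart. B4GAT1 fell from 81.7 and 80.9 to 60.5 and 65.7 CPM (-0.37, edgeR adjusted p = 0.000242) and LARGE2 from 1.81 and 2.54 to 0.781 and 0.718 CPM (-1.53, edgeR adjusted p = 0.00331). POMGNT2 rose from 22.9 and 21.9 to 28.6 and 28.5 CPM (0.35, edgeR adjusted p = 0.00452).

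Of 18 tested genes of hyaluronan metabolism and CD44 partners, 5 rose, 6 fell and 7 were not called (median -0.07). The share called was 61.1%, beside 42.0% of all genes tested. HAS2, a hyaluronan synthase, rose from 3.66 and 4.03 to 20.9 and 21.9 CPM (log2 fold change 2.48, standard error 0.13, edgeR adjusted p = 6.22e-08) while the hyaluronan receptor CD44 fell. HMMR, a second hyaluronan-binding protein that also works on the mitotic spindle, fell from 126 and 121 to 85.7 and 78.8 CPM (-0.58, edgeR adjusted p = 2.55e-06). VCAN, the hyaluronan-binding proteoglycan versican, fell from 537 and 508 to 351 and 356 CPM (-0.56, edgeR adjusted p = 7.68e-07), and ANK3, an ankyrin, from 91.9 and 94.9 to 66.8 and 65.7 CPM (-0.50, edgeR adjusted p = 7.06e-06).

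Of 22 tested genes of other basement membrane and elastic fibre glycoproteins, 6 rose, 7 fell and 9 were not called (median -0.03). Fewer were higher without IRF2BP2 shRNA replicate 1, and fewer were lower without replicate 2. In both fits fewer of all genes tested were called too. With all libraries, 59.1% of that list were called, beside 42.0% of all genes tested. FRAS1, which anchors epithelial basement membranes, fell from 196 and 183 to 119 and 125 CPM (log2 fold change -0.63, edgeR adjusted p = 8.05e-07). The matrilin MATN2 fell from 2.65 and 2.44 to 0.781 and 0.905 CPM (-1.59, edgeR adjusted p = 0.00131). PXDN, a peroxidase that crosslinks type IV collagen, rose from 382 and 377 to 434 and 439 CPM (0.20, edgeR adjusted p = 0.000975), and the microfibril gene FBN1 from 36.2 and 34.4 to 51.5 and 49.6 CPM (0.52, edgeR adjusted p = 0.000101).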

How the data were processed

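The 4 SK-N-BE(2) libraries, 2 per group, were read from the authors' deposited table of raw counts per Ensembl gene. Reads were aligned with HISAT2 2.2.0 to hg38, per the submitters' processing notes; the sources used here name no counter, annotation or strand setting. Libraries were made from TRIzol RNA with a TruSeq RNA kit, per the labels' protocols.

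Tests used R 4.3.3 with edgeR 4.0.16 (filterByExpr, TMM, robust quasi-likelihood F-test, glmTreat against 1.5-fold), with Benjamini-Hochberg adjustment over 19093 genes and a threshold of 0.05, two-sided. Standard errors are the size of the log2 fold change divided by the root of F. DESeq2 1.42.0, limma 3.58.1 voom, 2 other scalings, 2 other filters, a fit without robust estimation, a replicate block and leaving out each library were alternatives. The procedure was tested on simulated data. Exon lengths, coordinates and overlaps came from GENCODE release 29 (GRCh38). Replicates differed by more than sampling noise (chi-square per degree of freedom 7.01 and 5.26). All 46 genes are named, and from each of 4 further lists up to 4 called genes with the smallest p; the genes and lists were chosen with earlier results of these data known.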

Additional observations from a re-analysis of the deposited data

How the results depend on the processing

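Over 12 alternative analyses, 23 of the 27 called genes kept their call wherever they were tested and 4 (ITGA7, ITGB1, LAMA4 and HSPG2) lost it in 1 or more. None of the 27 changed sign. Of the 17 genes not called, 4 (ITGB8, NID1, FBLN2 and PTK2) gained a call in 1 or more. Without each library in turn, the count higher lay on both sides of the main count, and the count lower was at or below it. Past 1.5-fold, neither count rose. In each of these fits, fewer of all genes were called or passed 1.5-fold. DESeq2, limma voom and a filter keeping genes that average 10 CPM or more each gave 3 lower past 1.5-fold. Of all genes, 973, 1142 and 916 passed there in either direction, beside 1619 in the main analysis. The filter tested 10383 genes and left out ITGA3, LAMA1 and LAMA3. With the replicate number as a block, 15 genes were higher and 12 lower, and past 1.5-fold 5 and 5. Over all genes the block called 7902, and 1522 passed 1.5-fold, beside 8016 and 1619 in the main analysis. Same-numbered libraries deviated together only weakly (correlation 0.11 across 15441 genes), and nothing says that they are paired. The block ended the ITGA7 call (edgeR adjusted p = 0.0711) and gave one for PTK2 (0.0403).

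Genes not called changed sign in places. Over the 4 analyses without 1 library each, the log2 fold change ran from -0.013 to 0.33 for ITGA2, from -0.0097 to 0.18 for ITGA6, from -0.35 to 0.0086 for ITGA10, from -0.34 to 0.14 for ITGB4, from -1.39 to 0.053 for ITGB8 and from -0.040 to 0.017 for FBLN1. FBLN1 was at 8.22e-05 with no filter on low counts. TLN1 was at -0.036 with upper quartile scaling and -0.027 under the 10 CPM filter. The cause was not tested.

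For the dystroglycan list, upper quartile scaling and the 10 CPM filter each gave 4 higher and DESeq2 3 lower, and leaving out a library gave 3 to 6 higher and 3 to 5 lower. For the basement membrane list, the 10 CPM filter, which tests fewer genes, gave 2 lower, and leaving out a library gave 3 to 7 higher and 4 to 6 lower. With the longest transcript as gene length, a choice made after seeing the data, the laminin beta sum was 8.79 times the alpha sum with scramble and 17.2 times with the hairpin, in place of 9.70 and 19.8. The laminin gamma sum was 4.66 and 8.66 times the alpha sum, in place of 6.61 and 12.8, and the integrin beta sum 3.45 and 3.92 times the integrin alpha sum, in place of 2.65 and 3.02. Leaving out a library is assumed to leave the lone sample of a group as variable as the other group. Genes under about 1 CPM, such as LAMA2, LAMB3, ITGA5 and ITGA10, have too few counts to show changes of the size seen in LAMA5.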

Other observations

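ITGA1 and ITGA2 are neighbours on chromosome 5, on the plus strand and 30116 bases apart, and no other 2 of the 46 genes lie within 1000000 bases of each other. ITGA1 fell (log2 fold change -0.67) while ITGA2 was not called (0.17, edgeR adjusted p = 0.634). ITGA1 shares 2.56% of its exons with PELO, which was not called either (-0.06, edgeR adjusted p = 0.594).

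Ranked by mean length-scaled level among the 46 genes, VIM and ITGB1 held ranks 1 and 2 in each group. ZYX went from rank 9 with scramble to rank 5 with the hairpin, PXN from 14 to 9, FN1 from 20 to 14 and ITGB5 from 24 to 16. ITGA9 went from rank 16 to 22, and ITGA4 from 33 to 26.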
